A study of Homo sapiens with 26 samples.

Results

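The genes described here are 10 that set the pace of the G1 phase of the cell cycle: the D-type cyclins CCND1, CCND2 and CCND3, the E-type cyclins CCNE1 and CCNE2, the INK4 inhibitors CDKN2B and CDKN2C, the CIP/KIP inhibitors CDKN1A and CDKN1B, and the transcription factor MYC. They were matched by symbol among 62778 gene identifiers over 3 count tables, and all 10 had an identifier in each table. RNA was sequenced from 26 libraries of 3 established human lines of pancreatic ductal adenocarcinoma in which the nuclear receptor HNF4α was raised or lowered. HNF4α is made from the promoters P1 and P2, and the isoforms expressed were P1-a2 and P2-a8.

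Panc10.05 and BxPC3 carried doxycycline-inducible constructs, and doxycycline was given to every group of both lines, controls included. In Panc10.05 the P1-a2 group (2 libraries) received 25 ng/mL, the P2-a8 group (2 libraries) 12.5 ng/mL and the control group NC (2 libraries), whose titles name GFP, 25 ng/mL. In BxPC3 the P1-a2, P2-a8 and NC groups (2 libraries each; the NC titles read EV) all received 500 ng/mL. AsPC-1 was a CRISPR interference experiment, in which a guide RNA directs repression to a promoter. Its sgP1 group held guides sgP1E and sgP1J, its sgP2 group guides sgP2D and sgP2G, and its sgDual group guides sgDual2 and sgDual3, with 2 libraries per guide and so 4 per target. The control group sgNC had 2 libraries under 1 guide name, so any effect of that control cannot be told apart in its comparisons. Tests of a target counted its 4 libraries without a term for the guide, so guides were treated as replicates. The sources used here do not say whether a line was 1 clone, nor that same-group libraries came from separate cultures, so a p-value measures only the spread between these libraries, which may be technical. Line, dose, control construct and count table differ together between the lines and cannot be told apart.

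Progress through G1 depends on kinases switched on by cyclins. D-type cyclins bind CDK4 and CDK6, E-type cyclins bind CDK2, and both complexes phosphorylate the retinoblastoma protein, which frees E2F factors to transcribe S phase genes. INK4 proteins block CDK4 and CDK6, CIP/KIP proteins block CDK2 complexes, and MYC is a growth-promoting factor that raises ribosome and metabolic genes and is known to repress CDKN1A and CDKN2B. In pancreatic ductal adenocarcinoma the CDKN2A and CDKN2B locus is often lost.

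Promoter sequence is printed for the 3 inhibitors with the widest changes in these data, CDKN2C, CDKN1A and CDKN2B, so that their starts can be compared. The stretches come from RefSeq windows on GRCh38.p14, read 5′ to 3′ on the gene's strand and limited to bases before the start that lie in no annotated exon. Capitals mark CACGTG, the E-box bound by MYC with MAX, in CDKN2C, and the GC box GGGCGG or its reverse complement in the other genes. CDKN2C lies at chr1:50960495-50960744 (plus strand), CDKN1A at chr6:36678560-36678657 (plus strand) and CDKN2B at chr9:22009364-22009555 (minus strand).
CDKN2C: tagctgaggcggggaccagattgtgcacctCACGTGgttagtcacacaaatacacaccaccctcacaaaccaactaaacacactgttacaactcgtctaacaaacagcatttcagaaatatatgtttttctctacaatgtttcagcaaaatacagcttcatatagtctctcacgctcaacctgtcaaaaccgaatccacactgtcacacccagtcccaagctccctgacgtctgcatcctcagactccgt
CDKN1A: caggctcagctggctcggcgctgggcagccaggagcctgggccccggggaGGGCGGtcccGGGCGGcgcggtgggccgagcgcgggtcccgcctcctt
CDKN2B: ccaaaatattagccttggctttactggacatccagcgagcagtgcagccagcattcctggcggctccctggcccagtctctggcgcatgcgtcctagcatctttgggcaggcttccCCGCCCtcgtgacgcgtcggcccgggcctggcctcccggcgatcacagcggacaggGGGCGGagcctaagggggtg
The E-box printed for CDKN2C lay at bases -220 to -215 from this start. A separate CACGTG lay at -69 to -64 from another of its 3 RefSeq starts. The 250 bases before that start all lie in annotated exons and are not printed. Of 35116 RefSeq windows of 300 bases, 7.26% held CACGTG on either strand. The GC box was in 45% of the windows, among them those of the other CDKN2C starts, and that motif was added after the sequences had been seen. A further 6 letter strings were also searched on both strands: the HNF4 core CAAAGTCCA (0.384% of windows) and CAAAGGTCA (0.407%), the nuclear receptor half-site AGGTCA (13.8%), and the E2F strings TTTCGCGC (0.515%), TTTGGCGC (0.652%) and TTTCCCGC (1.63%). AGGTCA overlaps the longer CAAAGGTCA. None of these letters was in a window of CCND3, CCNE1, CDKN1A, CDKN1B, CDKN2B or CDKN2C, the 6 of 10 genes with a window. CCND1, CCND2, CCNE2 and MYC had no window in the table.

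Library totals were 34618745 to 46827673 counts in Panc10.05, 26369154 to 37483772 in BxPC3 and 26079388 to 50662077 in AsPC-1. HNF4A followed its labels: its mean in CPM (counts scaled to the library's total and its TMM factor) was 0.149 in Panc10.05 NC, 11.8 in P1-a2 and 37.6 in P2-a8. In BxPC3 it was 0.771, 10.7 and 13.4 in the same order, and in AsPC-1 213 in sgNC, 129 in sgP1, 86.4 in sgP2 and 7.99 in sgDual. P1-a2 and P2-a8 thus also differed in the amount of HNF4A RNA in Panc10.05 (log2 difference -1.66 ± 0.10 SE, adjusted p = 4.39e-17), and its part in the isoform comparisons was not tested. By edgeR's quasi-likelihood test the fall of HNF4A was past the threshold with sgDual (log2 fold change -4.73 ± 0.39 SE, adjusted p = 6.25e-06) but not with sgP1 (-0.72 ± 0.36, adjusted p = 0.615) or sgP2 (-1.30 ± 0.36, adjusted p = 0.0751). All 7 ductal epithelial markers exceeded 10 CPM in every library of Panc10.05 and BxPC3, and 6 of 7 did in AsPC-1, where KRT7 ran from 0.502 to 8.46 CPM. Of 11 markers of immune, endothelial, fibroblast, acinar and islet cells, 9 stayed under 1 CPM in Panc10.05 and in AsPC-1 and 7 in BxPC3, where COL1A1 reached 12 CPM at most.

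In the control libraries, CCND1 and MYC were among the 3 most abundant of the 10 genes per length in each line. Levels here are CPM per kilobase of exon, so that genes can be compared. CCND1 was at 82.5 and 80.0 in the 2 Panc10.05 controls and MYC at 79.5 and 81.6, so their libraries overlapped. CDKN1A followed at 32.5 and 32.0. CCND3 (22.1 and 22.5) and CDKN1B (21.6 and 22.6) overlapped each other, and CDKN2C (18.9 and 21.0) stood just below them. CDKN2B (15.5 and 14.5), CCNE1 (8.32 and 7.28), CCNE2 (7.06 and 6.55) and CCND2 (0 and 0.016) closed the order in Panc10.05.

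The order was different in the other lines. BxPC3 controls had CDKN1A highest at 58.9 and 70.7, overlapping CCND1 at 53.7 and 63.3, which in turn overlapped MYC at 49.1 and 55.2 CPM per kilobase. Below these, CDKN1B had 24.9 and 21.5, CCND3 9.65 and 9.49, CCNE1 5.83 and 6.29, CDKN2C 5.34 and 5.06, and CCNE2 3.88 and 2.96. CCND2 reached 0.104 and 0.133 CPM per kilobase, and CDKN2B had no counts. In AsPC-1 controls MYC (93.0 and 82.8) overlapped CCND1 (85.4 and 68.5), and CDKN1B came next at 15.7 and 17.8. CCND3 (9.70 and 7.26), CDKN1A (7.55 and 6.86), CCNE1 (7.69 and 6.66), CDKN2B (5.46 and 7.93) and CCNE2 (6.90 and 4.67) overlapped in a chain that ended with CDKN2C at 4.96 and 4.65, and CCND2 had no counts. Levels across lines come from tables normalized separately.

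**Figure D1:**
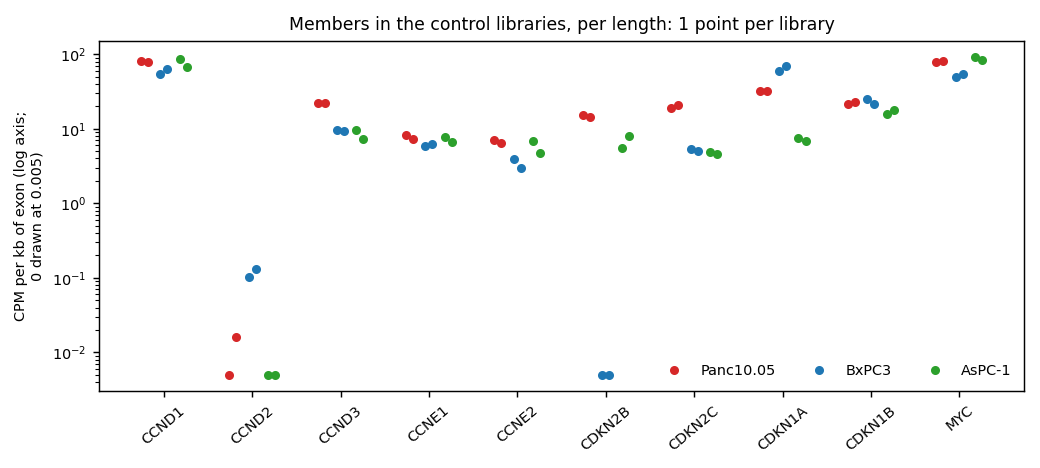
Level of each gene per length in the control libraries, in CPM per kilobase of exon on a log axis, with 1 point per library and 1 colour per line; a level of 0 is drawn at 0.005. CCND1 and MYC sit between 49.1 and 93.0 in all 6 libraries, CDKN1A spans 6.86 to 70.7, CCND2 is at 0 in AsPC-1 and CDKN2B at 0 in BxPC3.

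With either isoform induced in Panc10.05, most of the 10 genes differed from the control. In these comparisons, 46.2% to 62% of all genes tested did. A gene is called here at an adjusted p under 0.05 in edgeR's quasi-likelihood test, with adjustment over all genes tested. Against NC, P1-a2 called 10 of 10 genes, 5 higher and 5 lower, beside 62% of all genes tested (31.5% higher and 30.5% lower). P2-a8 called 9 of 10, 4 higher and 5 lower, beside 46.2% of all genes (23.7% higher and 22.5% lower), and only CDKN1B was not called. Between the isoforms, P1-a2 against P2-a8, 8 of 10 were called, 3 higher and 5 lower, beside 46.9% (22.2% higher and 24.7% lower). The median log2 fold change of the 10 genes was -0.11 with P1-a2 and -0.11 with P2-a8, where the median of all genes was 0.02 and 0.00046.

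BxPC3 had fewer calls. CDKN2B had no counts there, so 9 genes were tested. P1-a2 against NC called 4 of 9, 2 higher and 2 lower, beside 32.1% of all genes (17.1% higher and 14.9% lower). P2-a8 against NC called 1 of 9, CDKN1A, which was higher, beside 6.99% (4.3% higher and 2.69% lower). Same-numbered libraries deviated together in BxPC3 and AsPC-1, and with the replicate number as a block this comparison called 5 of 9. The 6.99% is from the fit without the block. The block also added calls outside these genes: 2 higher and 5 lower of 17 S phase and proliferation genes, where 0 were called without it. P1-a2 against P2-a8 called 4 of 9, 2 in each direction, beside 22.5% (11.6% higher and 10.8% lower), and 7 of 9 with the replicate block. The 22.5% is likewise without the block, and the block raised the same S phase list from 7 to 15 lower. The medians of the 9 genes were -0.02, -0.16 and 0.19 in these comparisons, beside -0.01, 0.01 and -0.01 over all genes.

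In AsPC-1 the calls were in the groups with both promoters targeted. CCND2 had no counts, so 9 genes were tested. The edgeR test called 0 of 9 with sgP1 against sgNC, beside 0.265% of all genes (0.1% higher and 0.165% lower), and 0 of 9 with sgP2 against sgNC, beside 3.42% (1.66% higher and 1.76% lower). The count of genes at an unadjusted p under 0.05 was 1 (CDKN2B) for sgP1 and 0 for sgP2, and DESeq2 also called 0 in each. With sgDual against sgNC, 4 of 9 were called, 2 higher and 2 lower, beside 35.6% (17.8% in each direction). Against sgP1, sgDual called 7 of 9, 2 higher and 5 lower, beside 38.3% (18.6% higher and 19.7% lower), and against sgP2 it called 6 of 9, 2 higher and 4 lower, beside 46.4% (22.8% higher and 23.5% lower). Between sgP2 and sgP1 the test called 0 of 9, beside 4.3% (2.17% higher and 2.13% lower), with 0 at an unadjusted p under 0.05 and 0 by DESeq2. With the replicate block, sgDual called 2 higher and 4 lower against sgNC, 3 and 5 against sgP1, and 2 and 5 against sgP2. The shares of all genes above are from fits without the block. The AsPC-1 comparisons share libraries with each other. The median log2 fold change of the 9 genes was 0.07 for sgP1, 0.08 for sgP2 and -0.25 for sgDual against sgNC, beside 0.0068, 0.00058 and 0.0012 over all genes.

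Whether the lines differed in a response was tested directly, as Panc10.05 minus BxPC3. Of 9 genes, 4 differed for P1-a2 against NC, beside 36.4% of all genes, 4 for P2-a8 against NC, beside 23.5%, and 4 for P1-a2 against P2-a8, beside 22.3%. With the replicate block, 7 of 9 were called in each contrast with NC and 5 of 9 between the isoforms. The shares of all genes are from the fit without the block. For P2-a8 against NC the block also raised 17 S phase and proliferation genes from 1 higher and 6 lower to 3 and 10. CDKN2C differed in all 3 of these contrasts, and CDKN1B in none, with or without the block. CCNE2 was called with the block alone in both contrasts with NC (adjusted p = 0.00496 for P1-a2 and 0.0001 for P2-a8, against 0.371 and 0.206 without it).

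**Figure D2:**
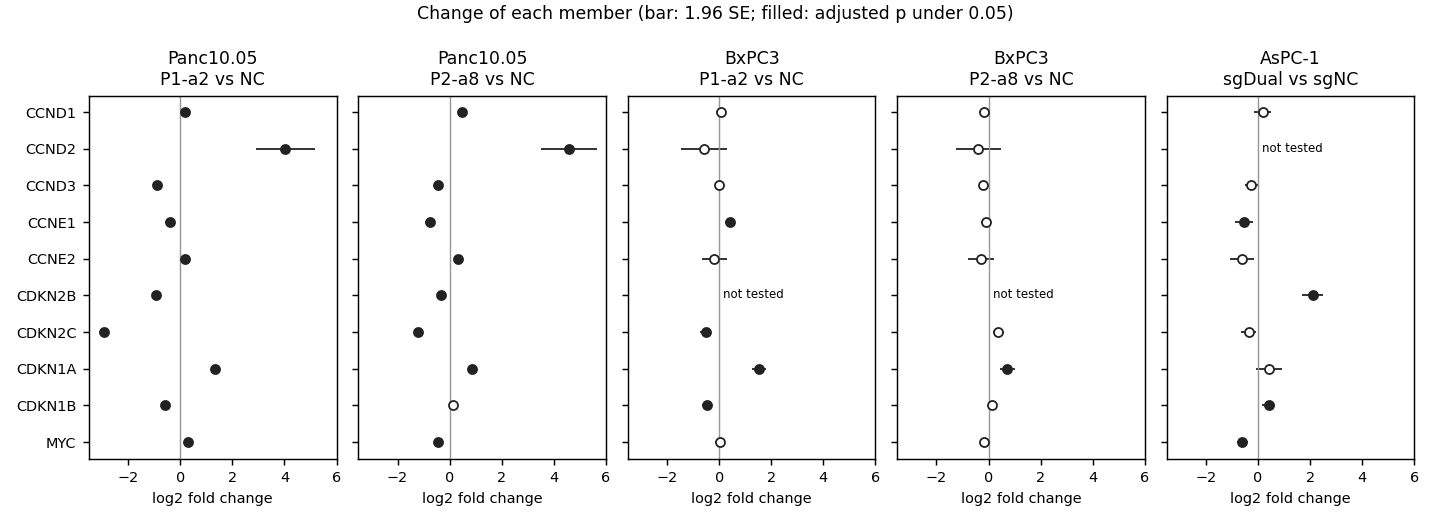
Log2 fold change of each gene in the 4 inductions against NC and in sgDual against sgNC (x axis). Filled points have an adjusted p under 0.05. Bars are a normal approximation to a 95% interval, drawn from the SE, and are narrower than an interval from the quasi-likelihood test itself. The bar of CCND3 in sgDual excludes 0 although its unadjusted p in edgeR's quasi-likelihood test was 0.0685. CDKN1A lies above 0 in all 4 inductions and is filled in each, CDKN2C is lowest in Panc10.05 at -2.92, and CDKN2B is highest in sgDual at 2.10; CCND2 is plotted in Panc10.05 although its control holds 4 counts.

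CDKN1A rose with both isoforms in both induced lines, and more with P1-a2 than with P2-a8. It encodes p21, the CDK2 inhibitor best known as a p53 target (chr6:36676460-36687339, plus strand, ENSG00000124762). In Panc10.05 it was at 99.1 and 97.7 CPM in the NC libraries, 182 and 178 in P2-a8, and 234 and 257 in P1-a2. The 3 groups did not overlap. Its log2 fold change was 1.32 ± 0.06 with P1-a2 (adjusted p = 3.29e-22) and 0.87 ± 0.06 with P2-a8 (adjusted p = 1.22e-15), and P1-a2 exceeded P2-a8 by 0.45 ± 0.06 (adjusted p = 4.11e-08).

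BxPC3 gave CDKN1A the same order from a higher start. The NC libraries had 180 and 216 CPM, P2-a8 298 and 355, and P1-a2 514 and 626, again without overlap. The change was 1.53 ± 0.14 with P1-a2 (adjusted p = 0.000403), a 2.88-fold rise, and 0.72 ± 0.14 with P2-a8 (adjusted p = 0.0337). The P2-a8 call was lost without NC replicate 1 (adjusted p = 0.102) and without P2-a8 replicate 2 (0.119), in a range from 5.67e-11 to 0.119 over the alternatives. P1-a2 exceeded P2-a8 by 0.81 ± 0.14 (adjusted p = 0.0091). The difference between the lines in the P1-a2 response was -0.20 ± 0.17 and did not pass the threshold (adjusted p = 0.415; 0.0309 with the replicate block). For P1-a2 against P2-a8 it was -0.35 ± 0.16 (adjusted p = 0.174; 0.000345 with the block).

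AsPC-1 held far less CDKN1A RNA: 23.0 and 20.9 CPM in sgNC, with 15.4 to 25.8 over the 4 sgP1 libraries and 18.0 to 36.9 over the 4 sgP2 libraries. The 4 sgDual libraries ran from 27.2 to 30.6 CPM, above both controls. That difference was 0.42 ± 0.26 and not called (adjusted p = 0.225), and against sgP1 it was 0.49 ± 0.21 (adjusted p = 0.0807; 0.00689 with the replicate block). DINOL, a non-coding RNA on the other strand, shares 146 exon bases with CDKN1A. No library had more than 3 counts of it, and the counting's strand setting is not given in the sources used here.

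CDKN1B was lower with P1-a2 in both lines and was not called with P2-a8 in either. It encodes p27, a CIP/KIP inhibitor that accumulates in resting cells (chr12:12715058-12722371, plus strand, ENSG00000111276). Panc10.05 NC libraries had 60.8 and 63.6 CPM, P2-a8 67.9 and 67.0, and P1-a2 41.2 and 41.0. The P1-a2 libraries lay below all others, at -0.60 ± 0.07 against NC (adjusted p = 3.01e-10) and -0.71 ± 0.07 against P2-a8 (adjusted p = 7.15e-12). With P2-a8 the value was 0.12 ± 0.07 (adjusted p = 0.148).

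The same separation of CDKN1B appeared in BxPC3, with NC at 70.04 and 60.5 CPM, P2-a8 at 74.9 and 68.1, and P1-a2 at 50.2 and 44.3. P1-a2 was lower than NC by -0.47 ± 0.09 (adjusted p = 0.00215) and lower than P2-a8 by -0.60 ± 0.09 (adjusted p = 0.0009). P2-a8 overlapped NC (0.13 ± 0.09, adjusted p = 0.443). In AsPC-1 the direction with loss of HNF4A was upward: sgNC had 44.0 and 49.96 CPM and the 4 sgDual libraries 56.5 to 69.2, a change of 0.41 ± 0.13 (adjusted p = 0.0208). That call was lost in 4 of 14 alternatives, among them the fit without sgNC replicate 1, which left 1 control library. The change ran from 0.3185 to 0.505 over the alternatives. CDKN1B in sgDual also exceeded sgP1 (0.38 ± 0.10, adjusted p = 0.00805) and sgP2 (0.32 ± 0.10, adjusted p = 0.0165). The call against sgP2 was lost in 5 of 18 alternatives, with the highest adjusted p, 0.177, without guide sgP2D (alternatives from 0.00162).

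CDKN2C had the largest change among these genes in Panc10.05, apart from the barely detected CCND2. It encodes p18, an INK4 inhibitor of CDK4 and CDK6 (chr1:50960745-50974633, plus strand, ENSG00000123080), and its upstream sequence is the one printed above with the E-box. The NC libraries had 62.6 and 69.5 CPM, P2-a8 27.9 and 28.6, and P1-a2 8.85 and 8.58, so the 3 groups fell in steps. The P1-a2 group was 7.57-fold lower than NC (-2.92 ± 0.09, adjusted p = 2.95e-29), and P2-a8 was 2.34-fold lower (-1.22 ± 0.08, adjusted p = 2.15e-17). P1-a2 was also lower than P2-a8 (-1.70 ± 0.09, adjusted p = 1.04e-19).

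BxPC3 had less CDKN2C and a smaller change. NC libraries held 17.7 and 16.8 CPM and P1-a2 libraries 12.9 and 11.3, a difference of -0.51 ± 0.11 (adjusted p = 0.00396). P2-a8 lay above NC, at 20.8 and 23.7 CPM, without a call (0.37 ± 0.11, adjusted p = 0.0641; 0.011 with the replicate block). P1-a2 was 1.84-fold lower than P2-a8 (-0.88 ± 0.11, adjusted p = 0.000276), the same direction as in Panc10.05. The responses of CDKN2C differed between the lines in all 3 comparisons, by -2.40 ± 0.14 for P1-a2 against NC (adjusted p = 3.73e-12) and -1.59 ± 0.13 for P2-a8 against NC (adjusted p = 3.45e-09).

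In AsPC-1, CDKN2C had 16.5 and 15.4 CPM in sgNC and 11.2 to 14.02 in sgDual. The sgDual libraries were all below the controls, and the difference was not called (-0.36 ± 0.15, adjusted p = 0.0712). It was called against sgP1 (-0.46 ± 0.12, adjusted p = 0.00766) and against sgP2 (-0.42 ± 0.12, adjusted p = 0.0112). Each of these calls was lost in 2 of 18 alternatives. The highest adjusted p was 0.194 for sgP1, without guide sgP1E (alternatives from 6.81e-05). For sgP2 it was 0.146, without guide sgDual2 (alternatives from 0.0012). CDKN2C also separated the guides of 1 target. Guide sgP1E had 19.6 and 20.6 CPM and sgP1J 13.5 and 14.6, a difference of 0.51 ± 0.09 (adjusted p = 0.00185), the 1 call of 9, beside 14.5% of all genes (7.82% higher and 6.7% lower), where the replicate block added CCND1 (adjusted p = 0.0106), CCNE1 (0.0337) and MYC (0.00151).

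CDKN2B was undetected in BxPC3, fell in Panc10.05 and rose 4.29-fold with sgDual in AsPC-1. It encodes p15, the INK4 inhibitor known as a TGF-beta target (chr9:22002903-22009363, minus strand, ENSG00000147883). All 6 BxPC3 libraries had 0 counts, which allows up to 0.114 CPM in the shallowest library, a limit for counting error only. In Panc10.05 the NC libraries had 63.0 and 58.8 CPM, P2-a8 44.5 and 52.3, and P1-a2 31.9 and 31.4. The groups fell in the order NC, P2-a8, P1-a2 without overlap, by -0.34 ± 0.07 with P2-a8 (adjusted p = 0.00019) and -0.95 ± 0.07 with P1-a2 (adjusted p = 1.31e-14). Between the isoforms the difference was -0.61 ± 0.08 (adjusted p = 6.81e-09).

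The AsPC-1 controls had 22.2 and 32.2 CPM of CDKN2B, and the 4 sgDual libraries 96.7, 114, 120 and 135. No sgDual library came near the range of the other groups, which reached at most 45.3 in sgP1 and 34.4 in sgP2. The change was 2.10 ± 0.21 against sgNC (adjusted p = 8.99e-06), 1.603 ± 0.16 against sgP1 (adjusted p = 6.02e-06) and 1.84 ± 0.16 against sgP2 (adjusted p = 1.01e-06). Neither sgP1 (0.50 ± 0.19, adjusted p = 0.448) nor sgP2 (0.26 ± 0.19, adjusted p = 0.536) was called against sgNC. CDKN2B lies within the antisense locus CDKN2B-AS1 without shared exon bases. The antisense gene had up to 425 counts in a Panc10.05 library, up to 162 in an AsPC-1 library and 0 in every BxPC3 library.

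Libraries numbered 1 and 2 differed in the same direction across the AsPC-1 guides. In 7 of 7 guides, number 1 was above number 2 for CCND1, CCND3, CCNE1, CCNE2, CDKN1A and MYC and below it for CDKN1B and CDKN2B. What the numbers mark is not stated in the titles. Values with the number as a block are given where it changes a call. Within-number values are also given, for CDKN2B here and for MYC below. Among libraries numbered 1, CDKN2B had 22.2 CPM in sgNC against 114 and 96.7 in sgDual, and among those numbered 2, 32.2 against 135 and 120. The rise was present within each number.

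**Figure D3:**
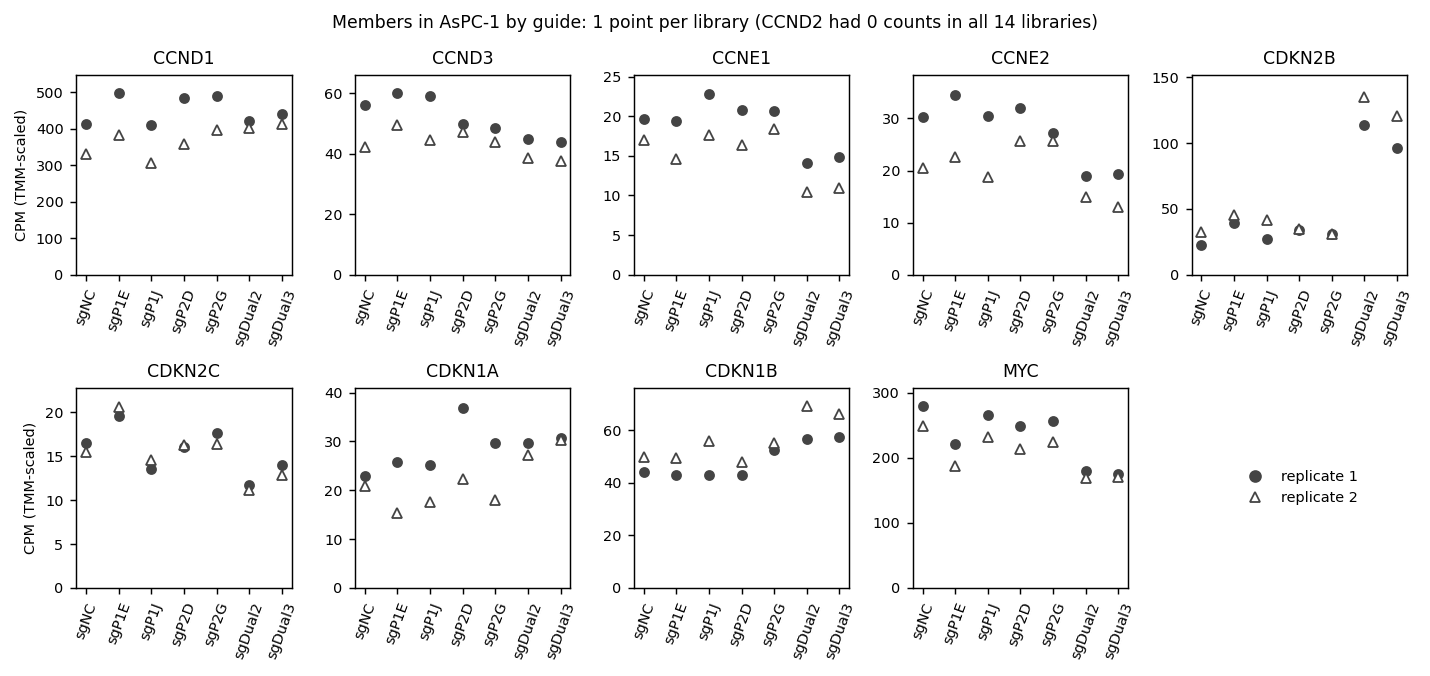
CPM of each gene in AsPC-1 by guide, with 1 point per library (filled circles are libraries numbered 1, open triangles those numbered 2). CDKN2B in the sgDual guides lies at 96.7 to 135, above every other library, MYC at 169 to 179 lies below every other library, and circles lie above triangles for CCND1 at every guide.

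Of the D-type cyclins, CCND1 made up most of the RNA in every group. CCND1, the cyclin D1 gene (chr11:69641087-69654474, plus strand, ENSG00000110092), held 78.5% of summed D-cyclin CPM per kilobase in Panc10.05 controls, 85.8% in BxPC3 controls and 90.1% in AsPC-1 controls. In Panc10.05 its share was 88.4% with P1-a2 and 87.3% with P2-a8. CCND1 itself had 398 and 386 CPM in NC, 458 and 436 in P1-a2, and 560 and 537 in P2-a8, with no overlap. The rise was 0.19 ± 0.06 with P1-a2 (adjusted p = 0.00498; 0.00214 to 0.0786 over the alternatives, highest without P1-a2 replicate 1) and 0.48 ± 0.06 with P2-a8 (adjusted p = 3.88e-09). P1-a2 was lower than P2-a8 (-0.30 ± 0.06, adjusted p = 4.81e-05).

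Without the replicate block, no CCND1 comparison between groups was called in BxPC3 or AsPC-1. In BxPC3 the 3 groups ran from 225 to 306 CPM and NC overlapped both isoforms. P1-a2 against P2-a8 gave 0.26 ± 0.10 (adjusted p = 0.102; 0.0145 with the block). The line difference was called for P2-a8 against NC (0.67 ± 0.12, adjusted p = 0.00057) and for P1-a2 against P2-a8 (-0.55 ± 0.12, adjusted p = 0.0032). AsPC-1 libraries spanned 305 to 498 CPM, and sgDual against sgNC gave 0.17 ± 0.17 (adjusted p = 0.447). CCND1 shares 497 exon bases with LTO1 on the opposite strand, which had up to 1592 counts in a library, so its values are uncertain to that extent.

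CCND3, the cyclin D3 gene (chr6:41934933-42050357, minus strand, ENSG00000112576), fell in Panc10.05. NC libraries had 128 and 130 CPM, P2-a8 93.7 and 95.85, and P1-a2 68.2 and 71.1. The steps were -0.45 ± 0.06 with P2-a8 (adjusted p = 6.8e-08), -0.89 ± 0.06 with P1-a2 (adjusted p = 2.49e-16) and -0.44 ± 0.06 between P1-a2 and P2-a8 (adjusted p = 1.22e-07). In BxPC3, CCND3 had 56.0 and 55.1 CPM in NC, 58.8 and 51.2 in P1-a2, and 50.6 and 45.6 in P2-a8. The P2-a8 libraries were below the controls, by -0.21 ± 0.08 (adjusted p = 0.173; 0.0192 with the replicate block), and P1-a2 overlapped them (-0.02 ± 0.08, adjusted p = 0.908). P1-a2 against P2-a8 gave 0.19 ± 0.08 (adjusted p = 0.116; 0.0173 with the block). For CCND3 the line difference was -0.87 ± 0.10 for P1-a2 against NC (adjusted p = 2.14e-07) and -0.24 ± 0.10 for P2-a8 against NC (adjusted p = 0.0802; 0.035 with the block). In AsPC-1 the call without the block was sgDual below sgP1 (-0.37 ± 0.11, adjusted p = 0.0122), where the groups overlapped. That call was lost in 3 of 18 alternatives, with the highest adjusted p, 0.0768, without guide sgDual3 (alternatives from 0.000243). With the block, CCND3 in sgDual was also called below sgNC (-0.25, adjusted p = 0.0162) and sgP2 (-0.20, adjusted p = 0.0121).

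CCND2, the cyclin D2 gene (chr12:4273772-4305350, plus strand, ENSG00000118971), was close to undetected. Panc10.05 NC libraries had 0 and 4 counts, P1-a2 libraries 28 and 50, and P2-a8 libraries 63 and 46. Both isoforms were called against NC (adjusted p = 1.07e-07 for P1-a2 and 4.08e-09 for P2-a8), but the size of the change rests on 4 control counts and is not given. Its highest level was 1.35 CPM, and it held at most 0.174% of D-cyclin RNA per length in any group. In BxPC3 all 6 libraries had 15 to 35 counts with no call, and all 14 AsPC-1 libraries had 0, which allows up to 0.115 CPM in the shallowest. CCND2 shares 989 exon bases with AC008012.1 on the same strand, which had at most 3 counts.

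With P1-a2, CCNE1 was lower in Panc10.05 and higher in BxPC3. It encodes cyclin E1, an activator of CDK2 (chr19:29811898-29824308, plus strand, ENSG00000105173). Panc10.05 NC libraries had 21.2 and 18.6 CPM, P1-a2 14.7 and 15.5, and P2-a8 11.98 and 11.5. It fell with both isoforms, by -0.40 ± 0.09 with P1-a2 (adjusted p = 0.000333) and -0.76 ± 0.10 with P2-a8 (adjusted p = 1.35e-08). In BxPC3, CCNE1 had 14.9 and 16.1 CPM in NC and 20.2 and 20.7 with P1-a2 (0.40 ± 0.09, adjusted p = 0.00635; 0.000921 to 0.0695 over the alternatives, highest without NC replicate 1). P2-a8 libraries there had 14.4 and 14.3 CPM and were not called (-0.11 ± 0.09, adjusted p = 0.595).

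The isoforms kept the same order for CCNE1, P1-a2 above P2-a8, by 0.36 ± 0.10 in Panc10.05 (adjusted p = 0.00219) and 0.51 ± 0.09 in BxPC3 (adjusted p = 0.00278). The line difference in P1-a2 against NC was -0.79 ± 0.14 (adjusted p = 7.29e-05). In AsPC-1, sgNC had 19.6 and 17.0 CPM and the 4 sgDual libraries 10.4 to 14.8. All sgDual libraries lay below the controls, by -0.54 ± 0.17 (adjusted p = 0.0226). That call was lost in 4 of 14 alternatives, among them the fit without sgNC replicate 1, which left 1 control library. The change ran from -0.6372 to -0.4335 over the alternatives. Against sgP1 and sgP2 the difference was -0.57 ± 0.14 (adjusted p = 0.00551) and -0.60 ± 0.14 (adjusted p = 0.00286).

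CCNE2, the cyclin E2 gene (chr8:94879770-94896678, minus strand, ENSG00000175305), rose in Panc10.05 and was lower with sgDual in AsPC-1 than with sgP1 or sgP2. Panc10.05 NC libraries had 31.1 and 28.8 CPM, P1-a2 36.3 and 32.3, and P2-a8 40.5 and 34.6. The rise was 0.20 ± 0.08 with P1-a2 (adjusted p = 0.0375; 0.013 to 0.346 over the alternatives, with 0.346 without P1-a2 replicate 1 and 0.1 by DESeq2) and 0.33 ± 0.08 with P2-a8 (adjusted p = 0.000987; 9.85e-05 to 0.0915 over the alternatives, highest without P2-a8 replicate 1). In BxPC3 the 6 libraries ran from 10.3 to 17.1 CPM with no call, and P2-a8 against NC was -0.29 ± 0.25 (adjusted p = 0.589; 0.0427 with the replicate block). AsPC-1 sgDual libraries had 12.95 to 19.4 CPM against 30.3 and 20.5 in sgNC, not called (-0.62 ± 0.23, adjusted p = 0.0533; 0.0244 by DESeq2, 0.000804 with the replicate block and 0.508 without sgNC replicate 1). They were called below sgP1 (-0.69 ± 0.19, adjusted p = 0.0129; 7.85e-05 to 0.0645 over the alternatives, highest without guide sgDual3) and sgP2 (-0.74 ± 0.19, adjusted p = 0.00701). The call against sgP1 was lost in 3 of 18 alternatives. CCNE2 shares 1629 exon bases with INTS8 on the opposite strand, which had up to 4472 counts, so its values are uncertain.

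MYC rose with P1-a2 and fell with P2-a8 in Panc10.05. MYC is the transcription factor of growth named above (chr8:127735434-127741434, plus strand, ENSG00000136997). NC libraries had 239 and 245 CPM, P1-a2 299 and 295, and P2-a8 177 and 179. Replicates lay within a few CPM of each other while the groups stood apart. The change was 0.30 ± 0.06 with P1-a2 (adjusted p = 2.27e-05) and -0.44 ± 0.06 with P2-a8 (adjusted p = 2.6e-08), and P1-a2 exceeded P2-a8 1.67-fold (0.74 ± 0.06, adjusted p = 4.41e-14).

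MYC was not called in BxPC3 without the replicate block, where the 6 libraries ran from 126 to 166 CPM. P1-a2 against NC was 0.03 ± 0.09 (adjusted p = 0.828). A normal approximation from the SE gave a range from -0.15 to 0.22, which is narrower than a 95% interval from the test itself. P2-a8 against NC was -0.16 ± 0.09 (adjusted p = 0.378, and 0.0491 with the block). P1-a2 against P2-a8 was 0.20 ± 0.09 (adjusted p = 0.171; 0.00809 with the block).

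The lines differed for MYC in P1-a2 against P2-a8 (0.55 ± 0.11, adjusted p = 0.00079). In P1-a2 against NC the line difference was 0.27 ± 0.11 (adjusted p = 0.0524; 0.00629 with the block) and in P2-a8 against NC -0.28 ± 0.11 (adjusted p = 0.0696; 0.00801 with the block).

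In AsPC-1 MYC had 279 and 248.5 CPM in sgNC, 187 to 265 in sgP1, 213 to 257 in sgP2 and 169 to 179 in sgDual. The 4 sgDual libraries were below all 10 others, by -0.61 ± 0.11 against sgNC (adjusted p = 0.000627). Against sgP1 the difference was -0.39 ± 0.09 (adjusted p = 0.00366) and against sgP2 -0.45 ± 0.09 (adjusted p = 0.000985). Among libraries numbered 1, MYC was 279 CPM in sgNC against 179 and 174 in sgDual, and among those numbered 2, 248.5 against 169 and 170. Neither sgP1 (-0.22 ± 0.11, adjusted p = 0.6) nor sgP2 (-0.16 ± 0.11, adjusted p = 0.493) was called.

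**Figure D4:**
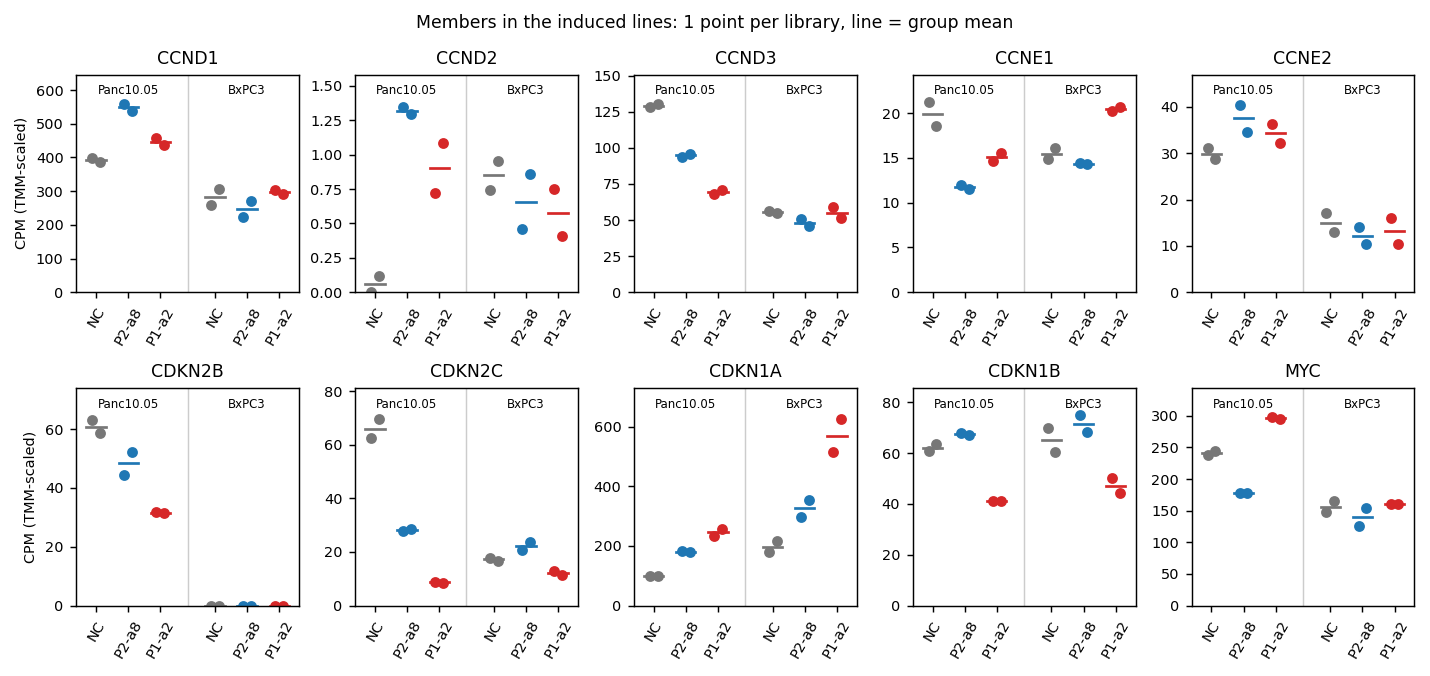
CPM of each gene in Panc10.05 and BxPC3 (left and right of the grey line), with 1 point per library and a bar at the mean of 2 libraries. CDKN1A climbs from NC to P2-a8 to P1-a2 in both lines, CDKN2C steps down in Panc10.05 from 69.5 to 8.58 CPM, and MYC in Panc10.05 lies above the control with P1-a2 and below it with P2-a8.

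The lists around these genes were followed for context, with the same test. Their counts are read against the share of all genes called, which was 62% for P1-a2 and 46.2% for P2-a8 against NC in Panc10.05, 32.1% and 6.99% in BxPC3, and 35.6% for sgDual against sgNC. Of 26 partners of G1 control (kinases, E2F factors and regulators), P1-a2 in Panc10.05 called 5 higher and 13 lower, 18 in all beside 62% of all genes, with a median log2 fold change of -0.14. CDKN2D, the remaining INK4 gene, went from 16.4 to 3.996 CPM (-2.02 ± 0.13, adjusted p = 3.34e-15), and E2F2 from 9.01 to 2.75 (-1.71 ± 0.15, adjusted p = 1.29e-13). E2F4, a mostly repressive E2F, rose from 84.5 to 178 CPM (1.076 ± 0.06, adjusted p = 2.63e-19). P2-a8 in Panc10.05 called 5 higher and 11 lower of 26, with 3 higher without P2-a8 replicate 1. In BxPC3, P1-a2 called 1 higher and 10 lower of 25, and 4 lower without P1-a2 replicate 2. P2-a8 called 1, CDK6, which was lower by -0.38 ± 0.08 (adjusted p = 0.0142), and 5 with the replicate block.

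With sgDual in AsPC-1, 4 of 26 partners were higher and 11 lower, which became 2 and 6 without sgNC replicate 1. CDKN2A, the neighbour of CDKN2B and source of p16, rose from 81.7 to 181 CPM (1.15 ± 0.22, adjusted p = 0.00143), and CDKN2D from 2.12 to 4.03 (0.93 ± 0.25, adjusted p = 0.0101). TFDP2, a partner subunit of E2F factors, fell from 159 to 56.6 CPM (-1.49 ± 0.14, adjusted p = 2.64e-06). Fewer partners were called with sgP2 (1 of 26, CDKN1C), and with sgP1 the edgeR test called 0 of 26, with 0 at an unadjusted p under 0.05 and 0 by DESeq2.

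Genes known as MYC targets were called higher in most cases with P1-a2 in Panc10.05 and lower throughout with sgDual. Of 20, P1-a2 in Panc10.05 called 17 higher and 0 lower (median 0.48, all genes 0.02), P2-a8 7 higher and 3 lower (median 0.06, all genes 0.00046). In BxPC3 P1-a2 called 8 higher and 1 lower, which became 5 higher without P1-a2 replicate 1, and P2-a8 called 1 in each direction, with 0 to 4 higher and 0 to 6 lower over the alternatives (4 and 6 with the replicate block). With sgDual all 20 were called lower (median -0.56, all genes 0.0012), a count of 8 without sgNC replicate 1. WDR43, a ribosome biogenesis factor, rose from 102 to 220 CPM with P1-a2 in Panc10.05 (1.11 ± 0.06, adjusted p = 1.27e-19), and HSPD1, a mitochondrial chaperone, fell from 1362 to 819 CPM with sgDual (-0.73 ± 0.13, adjusted p = 0.00063). LDHA, lactate dehydrogenase A, rose in BxPC3 with P1-a2 (1.07 ± 0.07, adjusted p = 6.7e-07).

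In the MYC network, the MAX and MLX partner family, P1-a2 called 4 higher and 3 lower of 11 in Panc10.05, near the share of all genes (62%), and 5 higher and 1 lower of 11 in BxPC3. P2-a8 called 3 higher and 4 lower in Panc10.05, with 2 lower without P2-a8 replicate 1, and 3 higher in BxPC3. The BxPC3 counts with P1-a2 fell to 3 higher without NC replicate 2, and those with P2-a8 to 1 higher without P2-a8 replicate 1. MLXIPL (a glucose-sensing factor also called ChREBP) was called in each induced comparison with NC. It rose from 0.943 to 14.6 CPM with P1-a2 and 7.91 with P2-a8 in Panc10.05, and from 0.938 to 22.6 and 8.59 in BxPC3. MXD3 and MXD4 encode MAX partners that oppose MYC. In Panc10.05 with P1-a2, MXD3 (-1.74 ± 0.13, adjusted p = 1.5e-15) and MXD4 (-0.70 ± 0.08, adjusted p = 2.01e-09) fell, and MXI1, another such partner, rose (0.45 ± 0.07, adjusted p = 9.02e-07). In BxPC3 MXD4 rose with P1-a2 (0.44 ± 0.07, adjusted p = 0.000645) and MXD3 rose with P2-a8 (0.64 ± 0.14, adjusted p = 0.0166). With sgDual, 3 of 12 genes were higher and 1 lower, beside 35.6% of all genes called. MXD4 rose 2.74-fold (1.46 ± 0.27, adjusted p = 0.00113) and MXI1 1.76-fold (0.82 ± 0.20, adjusted p = 0.00519).

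The S phase and proliferation list had 17 genes. P1-a2 in Panc10.05 called 2 higher and 13 lower (median -0.39) beside 62% of all genes called, with CCNA2 falling from 121 to 34.5 CPM and CCNB1 from 496 to 155. The 2 higher were CDC6, a replication licensing factor (0.26 ± 0.07, adjusted p = 0.00119), and RRM2 (0.15 ± 0.06, adjusted p = 0.0414). P2-a8 called 2 higher and 11 lower (median -0.31), the higher being CDT1 (0.36 ± 0.07, adjusted p = 6.83e-05) and RRM2 (0.33 ± 0.06, adjusted p = 3.25e-05). In BxPC3 P1-a2 called 9 lower (median -0.38), with 14 lower by DESeq2 and 16 with the replicate block, beside 32.1% of all genes. P2-a8 there called 0 of 17 in edgeR's test, with 1 at an unadjusted p under 0.05, 0 by DESeq2, and 2 higher and 5 lower with the block. With sgDual all 17 were lower (median -0.66) beside 35.6% of all genes called, with 15 lower without sgNC replicate 1. CDC6, which was higher with P1-a2 in Panc10.05, fell with sgDual by 0.82 on the log2 scale (SE 0.15, adjusted p = 0.000983).

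Genes known as p53 targets other than CDKN1A changed in both directions. P1-a2 called 10 higher and 9 lower of 20 in Panc10.05 and 11 higher and 3 lower of 21 in BxPC3, beside 62% and 32.1% of all genes called. P2-a8 called 6 higher and 7 lower in Panc10.05, with 4 lower without P2-a8 replicate 2, and 3 higher and 1 lower in BxPC3. The last count ran from 0 higher without NC replicate 2 to 9 with the replicate block. ZMAT3 rose with P1-a2 in Panc10.05 (1.01 ± 0.08, adjusted p = 3.94e-14) and in BxPC3 (0.84 ± 0.11, adjusted p = 0.000191). GDF15 rose in Panc10.05 with P1-a2 (1.27 ± 0.11, adjusted p = 2.79e-13) and was lower in BxPC3 (-0.45 ± 0.09, adjusted p = 0.00255). With sgDual 6 were higher and 3 lower of 21, beside 35.6% of all genes called, with 3 higher without sgNC replicate 1.

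**Figure D5:**
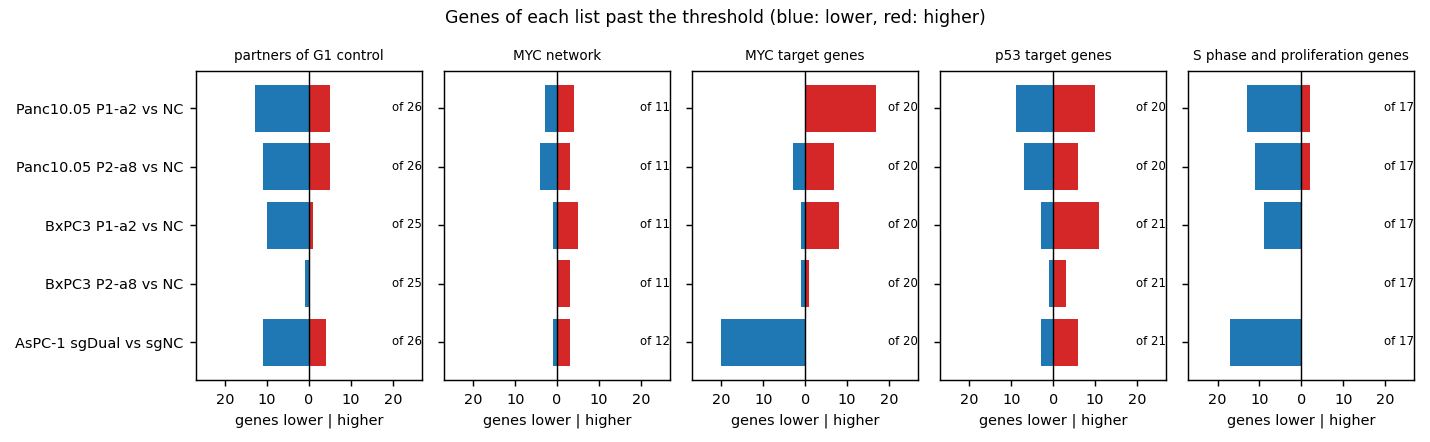
Number of genes of 5 lists that were called higher (red, right) or lower (blue, left) in 5 comparisons with the control (the 4 inductions and sgDual), with the number tested at the right edge. MYC target genes are 17 higher in Panc10.05 P1-a2 and 20 lower in AsPC-1 sgDual, and the p53 list has bars on both sides in these 5 rows.

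Guides of the same target were compared in a fit with 7 groups. Between sgP2D and sgP2G the edgeR test called 0 of 9 genes, beside 1.69% of all genes (0.647% higher and 1.05% lower), and between sgDual2 and sgDual3 0 of 9, beside 0.883% (0.418% higher and 0.465% lower). At an unadjusted p under 0.05 there were 0 and 1 genes, the latter CDKN2C, and DESeq2 called 0 in each. For sgP1E against sgP1J, MYC was 221 and 187 CPM against 265 and 232, which did not pass the threshold without the replicate block (-0.28 ± 0.11, adjusted p = 0.103; 0.00151 with it).

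Likeness across all 26 libraries was described by Pearson's r of log2(CPM + 1) after each line's control mean was subtracted, against 10673 genes with a mean of at least 5 CPM. The points share libraries and their depth, so r is a description. CDKN2C was most like POC1A (r = 0.978) and CKAP2 (r = 0.974), MYC most like GNL2 (r = 0.958) and FARSA (r = 0.949), and CCND3 most like AKT1 (r = 0.947). CCNE2 was most like RRM2 (r = 0.943), CDKN1A like ANGPTL4 (r = 0.938), CCNE1 like PPIF (r = 0.936), CDKN1B like SUDS3 (r = 0.914) and CCND1 like PLEC (r = 0.828). Among the genes themselves, CCND3 and CDKN2C had r = 0.835 and CDKN1B and MYC had r = -0.806. In bulk RNA of a culture, a change in the share of cells that express a gene and a change per cell cannot be told apart.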

How the data were processed

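RNA was measured in 26 libraries, 6 of Panc10.05, 6 of BxPC3 and 14 of AsPC-1. Per the labels' protocols, poly(A) RNA was prepared with a directional kit and sequenced paired-end. The deposited values are counts per gene, whole numbers that the authors did not normalize, in 1 table per line. The submitters' processing notes name STAR 2.7.9a, cutadapt 1.16, featureCounts 1.6.3, DESeq2 1.36.0 and GRCh38 without role or order. The annotation and the strand setting are not given in the sources used here, so overlapping genes are uncertain.

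Groups came from the genotype labels, guides and replicate numbers from the titles. Symbols came from a reference table that matched 99.88% of identifiers in Panc10.05 and BxPC3 and 99.91% in AsPC-1. Genes were kept with filterByExpr, scaled by TMM and tested with edgeR 4.0.16 (glmQLFit with robust estimation, glmQLFTest) in R 4.3.3, all groups of a line in 1 fit. Benjamini-Hochberg adjustment ran over every tested gene, with calls at an adjusted p under 0.05. The SE of a log2 fold change (the value after ±) is its size divided by the square root of F. Levels are TMM-scaled CPM, divided by exon length (GENCODE v29, GRCh38) where genes are compared. Line differences were tested in a joint fit of 12 libraries, without CDKN2B, and guides in a fit with 7 groups.

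The 10 genes and the lists were chosen with earlier results of these data known. All 10 genes are named. From each list, up to 2 genes with the largest rise and 2 with the largest fall among the called could be named in each comparison with a control. Replicate numbers come from the titles, which do not say what they mark. The correlation of same-numbered deviations between groups was 0.174 to 0.312 in BxPC3 (3 pairs of groups) and 0.183 to 0.581 in AsPC-1 (21 pairs), so values with the number as a block stand beside results whose call they change, and -0.0259 to 0.021 in Panc10.05. The procedure was also run on simulated counts with 1 dispersion for all genes and no differences between guides or replicate numbers. That run does not cover such differences in these data. Alternatives were DESeq2 1.42.0, 2 other scalings, no filter, only the 2 groups compared, a replicate block, a required change of 1 log2 unit, and leaving out libraries or guides.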

Additional observations from a re-analysis of the deposited data

Results flagged for a closer look

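The responses of 6 genes differed between Panc10.05 and BxPC3 in a test of the difference itself (edgeR's quasi-likelihood test of the interaction, 9 genes tested, 4 called in each of 3 contrasts, beside 36.4%, 23.5% and 22.3% of all genes tested). In this order the contrasts are P1-a2 against NC, P2-a8 against NC and P1-a2 against P2-a8, and each value is Panc10.05 minus BxPC3 in log2 units.

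For P1-a2 against NC the differences were -2.40 for CDKN2C, -0.87 for CCND3 and -0.79 for CCNE1. CCND2 gave 4.62 for this contrast, a value that rests on 4 counts in the Panc10.05 controls and ran from 3.54 to 8.61 over the alternatives. For P2-a8 against NC they were -1.59 for CDKN2C, -0.65 for CCNE1 (adjusted p = 0.00137), 0.67 for CCND1 and 4.96 for CCND2, with the same limit. For P1-a2 against P2-a8 they were -0.81 for CDKN2C (adjusted p = 0.000128), -0.62 for CCND3 (adjusted p = 5.85e-05), -0.55 for CCND1 and 0.55 for MYC. CDKN1A and CDKN1B were called in none of the 3 contrasts, although CDKN1A was with the replicate block (adjusted p = 0.0309 for P1-a2 against NC and 0.000345 between the isoforms). The doses, the control constructs and the count tables differ between the lines, and their part cannot be told apart from that of the line. A gap-ratio check for outliers in 27 groups of 4 libraries (9 genes in 3 AsPC-1 groups) flagged no library. With 4 values from 2 guides it can flag only a very wide gap. Groups of 2 libraries, sgNC among them, were not checked.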

How the results depend on the processing

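DESeq2, upper-quartile scaling and total counts kept each count of called genes within 1.5 times the main count in all comparisons they were run on. When calls also had to change by 1 log2 unit or more, Panc10.05 had 3 calls for P1-a2 and 2 for P2-a8 against NC and 1 between the isoforms. BxPC3 had 1, 0 and 0 of these, and each sgDual comparison had 1. Without the filter, BxPC3 P2-a8 against NC had 3. Fitting only the 2 groups gave 7 for sgDual against sgNC. Left out in turn, libraries moved the counts from 0 to 2 for BxPC3 P2-a8 against NC and from 2 to 6 for sgDual against sgNC, with 2 called without sgNC replicate 1. Without guide sgP1J, sgP1 against sgNC had 2, without guide sgDual2, sgDual against sgNC had 2 and against sgP1 4, and without guide sgP1E, sgDual against sgP1 had 4. MYC in BxPC3 P1-a2 against NC ran from -0.058 without NC replicate 1 to 0.114 without NC replicate 2. Over all genes, sgP1 against sgNC had 45 calls (1 to 1242 over the alternatives, 248 by DESeq2), and BxPC3 P2-a8 against NC had 1232 (364 to 2886). The causes were not tested.

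With the replicate block, the counts became 5 for BxPC3 P2-a8 against NC, 7 for BxPC3 P1-a2 against P2-a8 and 4 for sgP1E against sgP1J. The line differences had 7 in both contrasts with NC and 5 between the isoforms. For sgDual the block gave 2 higher and 4 lower against sgNC, 3 and 5 against sgP1, and 2 and 5 against sgP2. The block added calls and changed no other call among the 10 genes. The shares of all genes printed beside the main counts are from fits without the block. The number of libraries, 2 in most groups, limits the precision of every value.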
